A study of Mus musculus with 3 samples.

Results

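Dntt-positive lymphoid-primed progenitors were described in bone marrow LSK cells of the mouse, a fraction defined by absent lineage antigens together with surface Sca-1 and Kit and home to stem and multipotent progenitor cells. Dntt encodes terminal deoxynucleotidyl transferase, which adds bases without a template at the joins of antigen receptor genes. A cell was counted as a member when it held at least 2 Dntt counts (unique molecular identifiers, UMIs) and when the early B genes Cd79a, Vpreb3, Ebf1, Igll1 and Vpreb1 together made up fewer than 10 of every 10000 of its UMIs. The rule found 3983 of 21251 cells, which were 1188 of 8184 DKO cells, 538 of 4920 KO cells and 2257 of 8147 WT cells. The cells were thus chosen by their own Dntt and B gene counts, so the levels of these 6 genes are descriptions and were left out of every count of genes.

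The DKO library came from mice labelled Spop(D/D) Myd88(-/-), the KO library from Spop(D/D) Myd88(+/+) mice and the WT library from Spop(+/+) Myd88 (+/+) mice. SPOP is the substrate receptor of a cullin ubiquitin ligase, and MyD88 couples Toll-like receptors and the interleukin-1 receptor family to their signalling kinases. There was 1 library per genotype. The age of the mice, how many were pooled and what drove the Spop deletion are not given in the sources used here. The study's title names MyD88 as a target of Spop in inflammation-driven blood formation.

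In adult marrow, lymphoid priming begins among multipotent progenitors that carry the Flt3 receptor, before any lineage is fixed. These cells switch on Dntt, then the interleukin-7 receptor and the recombination genes, while stem cell and megakaryocyte-erythroid genes decline. Expression of Dntt, Il7r and Flt3 together is a textbook sign of the lymphoid-primed multipotent progenitor and of the common lymphoid progenitor that follows it.

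Dntt lies on chromosome 19 from 41029275 to 41059525 on the plus strand (GENCODE vM21, build GRCm38, the mm10 of the files). Il7r lies on chromosome 15 from 9505788 to 9530176, Flt3 on chromosome 5 from 147330741 to 147400489 and Arpp21 on chromosome 9 from 112065091 to 112235938, all on the minus strand. The 250 bases before the RefSeq start of Dntt, Il7r and Flt3 are shown because these genes mark the cells (build GRCm38.p6, each 5′ to 3′ on the gene's strand). Capitals mark matches on either strand to CAGNTG (bound by E proteins), TGGGAA (Ikaros) or TGTGGT (Runx factors).
Dntt, chr19:41029025-41029274, plus strand: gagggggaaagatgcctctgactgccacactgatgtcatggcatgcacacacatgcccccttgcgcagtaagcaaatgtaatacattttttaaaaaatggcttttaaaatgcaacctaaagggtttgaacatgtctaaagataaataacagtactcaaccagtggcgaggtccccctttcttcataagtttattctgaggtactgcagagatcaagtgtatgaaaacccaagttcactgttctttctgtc
Il7r, chr15:9529877-9530126, minus strand: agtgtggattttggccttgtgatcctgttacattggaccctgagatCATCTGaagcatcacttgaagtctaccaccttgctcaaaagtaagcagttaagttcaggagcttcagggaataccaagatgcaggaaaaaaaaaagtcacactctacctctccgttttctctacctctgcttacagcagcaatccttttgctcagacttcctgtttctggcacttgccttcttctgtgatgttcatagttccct
Flt3, chr5:147400490-147400739, minus strand: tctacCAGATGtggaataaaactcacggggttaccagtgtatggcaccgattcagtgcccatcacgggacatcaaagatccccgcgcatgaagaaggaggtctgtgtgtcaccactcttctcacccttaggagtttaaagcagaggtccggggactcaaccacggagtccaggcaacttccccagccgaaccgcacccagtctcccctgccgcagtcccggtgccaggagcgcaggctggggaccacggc
CAGNTG occurred once before Il7r, once before Flt3 and not before Dntt, and the other 2 motifs did not occur in these 3 windows. A window with CAGNTG is common, being 44.8% of all 32851 RefSeq windows of this length, against 21.6% for TGGGAA and 14.0% for TGTGGT. A match is a description of letters only.

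All comparisons rest on summed counts, given as counts per 1000000 UMIs (CPM), and on 1 library per genotype, so no test between genotypes was possible. Intervals are 95% and cover counting error only. The Dntt-positive cells had a median of 13514 UMIs in DKO, 16342 in KO and 9830 in WT, and the other cells 12222.5, 17556 and 9033. Within the Dntt-positive cells Myd88 stood at 3.28 CPM in DKO, 20.1 in KO and 13.7 in WT. Spop stood at 77.3 CPM in DKO, 62.5 in KO and 71.2 in WT, which does not separate the genotypes, and 3′ tags outside a deleted stretch would not show its loss. Xist was at 1604 CPM in the DKO cells and at 0 in KO and 0.243 in WT, whereas Ddx3y was at 0 in DKO, 34.5 in KO and 45.3 in WT, so sex and genotype cannot be told apart in comparisons with DKO. Across the libraries, 183 cell barcodes occurred in more than 1.

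The share of Dntt-positive progenitors was lower in both Spop-deleted libraries. It was 14.5% of cells in DKO (13.8 to 15.3, exact Clopper-Pearson), 10.9% in KO (10.1 to 11.8) and 27.7% in WT (26.7 to 28.7). Because a fixed count favours deep cells, each cell was also thinned to 5500 UMIs, which left out 178 DKO, 0 KO and 683 WT cells. The shares were then 10.1% in DKO, 6.46% in KO and 22.98% in WT. The order DKO above KO and below WT was the same at both depths, and the 3 intervals did not overlap at either. A share also depends on the other cells of the library: granule-marked cells made up 13.5% of DKO cells, 39.4% of KO cells and 4.79% of WT cells.

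Few erythroid-marked cells, a type that should lack Dntt, met the rule. Among erythroid-marked cells 2 of 147 met the rule in DKO, 7 of 1024 in KO and 1 of 37 in WT. At 5500 UMIs, a Dntt UMI was seen in 3.45% of these cells in DKO, 1.86% in KO and 8.33% in WT. Their median depth was 15764, 14861 and 12072 UMIs in DKO, KO and WT before thinning. The WT values rest on only 37 erythroid-marked cells. Granule-marked cells met the rule more often, with 109 of 1103 in DKO, 91 of 1938 in KO and 35 of 390 in WT.

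The Dntt count itself varied widely among the chosen cells. The median was 6 in DKO, 6 in KO and 7 in WT, and the highest was 90, 72 and 104. Cells just inside the threshold, with exactly 2 counts, numbered 246, 105 and 370, and cells just outside it, with 1 count, numbered 726, 384 and 1052. At least 20 counts were held by 15.6% of the DKO, 15.2% of the KO and 23.4% of the WT progenitors. At equal depth, 10 or more Dntt UMIs were held by 1.73% of DKO, 0.997% of KO and 8.37% of WT cells under the B limit, and of the 5 classes with at least 1 Dntt UMI this one had the widest ratio of WT to each other library. Outside the B limit, with at least 2 Dntt counts, were 10 DKO, 5 KO and 616 WT cells.

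**Figure D1:**
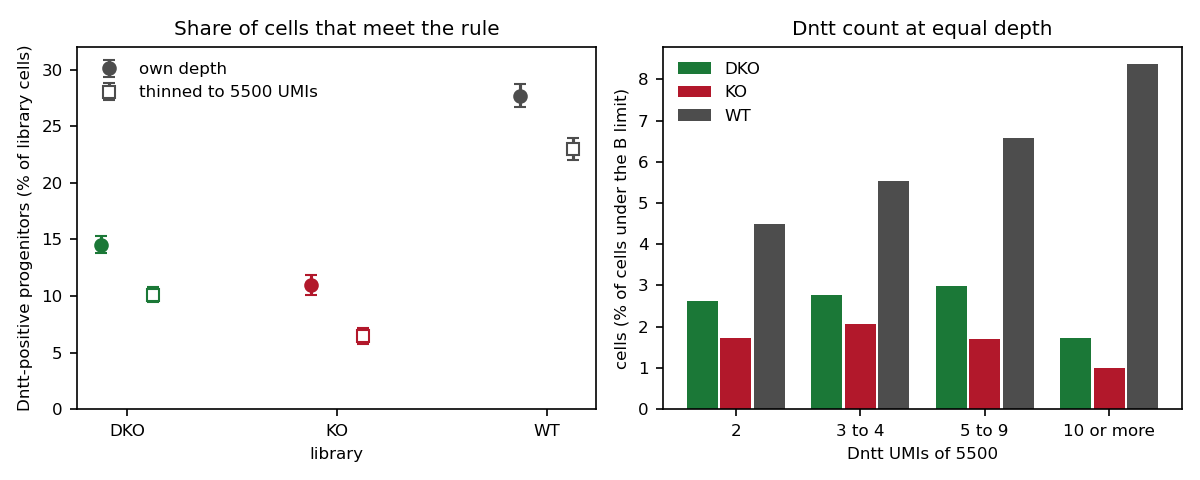
Left, Dntt-positive progenitors as a percentage of all cells of the DKO, KO and WT libraries at their own depth (filled circles) and with each cell thinned to 5500 UMIs (open squares), bars being exact 95% intervals for counting error. Right, percentage of cells under the B limit in each Dntt class at 5500 UMIs. WT is highest in every class, and the class of 10 or more UMIs holds 8.37% of its cells against 1.73% in DKO and 0.997% in KO.

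The 3 other markers, Flt3, Il7r and Arpp21, were higher in the Dntt-positive cells. They were not in the rule, but the members were chosen with earlier results of these data known. Their levels are thus descriptions and no independent support for the name lymphoid-primed. Flt3, a receptor tyrosine kinase of early lymphoid progenitors, was at 247 CPM in Dntt-positive cells against 81.3 in other cells of DKO, at 149 against 24.2 in KO and at 259 against 89.4 in WT. Il7r, the interleukin-7 receptor chain, was at 15.3 against 0.601 CPM in DKO, 12.1 against 0.369 in KO and 42.2 against 18.2 in WT. Arpp21, a phosphoprotein gene that rises with Dntt in early lymphoid cells, was at 30.5 against 1.33 CPM in DKO, 17.7 against 0.543 in KO and 58.5 against 13.7 in WT. Among the other cells of WT were 633 cells over the B limit, against 11 in DKO and 5 in KO.

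Of the T cell markers, 11 were in the table and few reached a mean of 10 CPM, namely 2 in DKO (1 higher and 1 lower in the Dntt-positive cells) and 1 each in KO and WT (higher). Their summed level was 56.3 against 31.97 CPM in DKO, 41.9 against 12.7 in KO and 75.8 against 31.6 in WT, and in the Dntt-positive cells most of it came from Lck. Lck, a Src family kinase of T cells and early lymphoid progenitors, was at 39.9 against 11.3 CPM in DKO, 28.3 against 4.11 in KO and 55.1 against 17.7 in WT. Tcf7, a T lineage transcription factor, was at only 1.55, 1.82 and 1.26 CPM in the Dntt-positive cells of DKO, KO and WT. Bcl11b, a gene of T commitment, was at 1.07 CPM in DKO, 0 in KO (a count of 0 allows 0.320) and 1.54 in WT. The plasmacytoid dendritic marker Siglech was at 0.478 CPM in DKO, 0 in KO and 4.70 in WT. The wider dendritic and plasmacytoid list summed to 503 against 300 CPM in DKO and 586 against 317 in WT. In KO it summed to 500 against 494. Of its members at 10 CPM, 2 of 4 were higher and 1 lower in DKO and in WT. In KO 1 of 5 was higher and 1 lower. Of all genes at that level, 2.73% were higher and 3.30% lower in DKO. In KO 5.76% were higher and 6.14% lower, and in WT 2.87% and 2.89%.

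Against the other cells of the same library, 113 of 5246 genes (2.15%) stood higher by 1.5-fold or more in DKO, and 155 (2.95%) stood lower by as much. In KO 237 of 4922 (4.82%) were higher and 286 (5.81%) lower, and in WT 145 of 5218 (2.78%) were higher and 110 (2.11%) lower. With TMM scaling the counts were 154 higher and 122 lower in DKO, 269 and 235 in KO and 166 and 92 in WT, so which direction had more genes turned round in DKO and KO. These counts cover genes with a mean of at least 20 CPM. Among the 10 highest ratios, Notch1, the receptor that directs T lineage choice, and Il12a, a subunit of interleukin-12 and interleukin-35, came up in all 3 libraries. Notch1 was at 57.1 against 12.4 CPM in DKO, 44.2 against 10.0 in KO and 107 against 30.9 in WT. Il12a was at 99.1 against 26.9 CPM in DKO, 55.6 against 10.3 in KO and 178 against 42.4 in WT. Cox6a2, a respiratory chain subunit isoform best known from muscle, was 11.2-fold higher in WT (10.1 to 12.5) and 5.82-fold in KO (5.28 to 6.41). Wfdc17, a small secreted protein gene, was 5.67-fold higher in DKO (5.43 to 5.92) and 6.95-fold in KO (6.66 to 7.26). Cmah, which makes the N-glycolyl form of sialic acid, was 8.27-fold higher in WT (7.26 to 9.45).

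The list of lymphoid priming genes stood above the other genes in each library. This is a description, since the list was chosen with earlier results of these data known and the cells were picked by Dntt. Of its measured members (mean of at least 10 CPM), 17 of 26 were higher and 0 lower in DKO, with a median log2 ratio of 0.83, where 2.73% of all genes at that level were higher and 3.30% lower. In KO 17 of 22 were higher and 0 lower (median 1.25, against 5.76% and 6.14% of all genes). In WT 19 of 30 were higher and 1 lower (median 0.82, against 2.87% and 2.89%). The all-gene medians were -0.08, -0.09 and -0.04. Satb1, a chromatin organiser of early lymphoid cells, was at 170 against 52.6 CPM in DKO, 133 against 25.4 in KO and 218 against 72.1 in WT. Ccr9, a homing receptor for the thymus, was at 8.78 against 0.311 CPM in DKO, 3.203 against 0.0978 in KO and 12.0 against 1.16 in WT. Cnn3, an actin-binding calponin, was 7.68-fold higher in DKO (6.86 to 8.59), 3.63-fold in KO (3.07 to 4.29) and 2.02-fold in WT (1.89 to 2.16). The transcription factor gene Mef2c was 1.71-fold, 1.97-fold and 1.81-fold higher in DKO, KO and WT, and Ikzf1, which encodes Ikaros, 1.52-fold, 1.47-fold and 1.66-fold.

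Most recombination genes lay within 1.5-fold. So did most of all genes at 10 CPM, of which 2.73%, 5.76% and 2.87% were higher in DKO, KO and WT. Lower were 3.30%, 6.14% and 2.89%. Of the measured members of the recombination list, 1 of 9 was higher in DKO, 1 of 8 in KO and 1 of 11 in WT. In the same order 0, 0 and 1 were lower. The one that was higher, Xrcc6, encodes Ku70 of the end-joining machinery and was at 124 against 51.8 CPM in DKO, 65.6 against 31.7 in KO and 119 against 55.9 in WT. Rag2, a subunit of the recombinase, was at 5.73 against 0.891 CPM in DKO, 2.56 against 0.228 in KO and 12.1 against 7.49 in WT. Rag1, the catalytic subunit, was at 0.418 CPM in DKO, 0 in KO and 8.14 in WT progenitors. The other cells of WT, with the B lineage cells among them, held 15.9 CPM. Without those cells the WT log2 ratio of Rag1 was 4.21 in place of -0.96. Rag1 was at 0 in all KO cells, so KO allows no ratio.

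Of the measured cytokine receptors 6 of 21 were higher and 2 lower in DKO (median log2 ratio 0.13). In KO 10 of 21 were higher and 2 lower (0.55), and in WT 8 of 23 were higher and 2 lower (0.14). The rest lay within 1.5-fold. Of all genes at 10 CPM, 2.73% were higher and 3.30% lower in DKO, 5.76% and 6.14% in KO and 2.87% and 2.89% in WT. Il1r1, an interleukin-1 receptor that signals through MyD88, was at 24.1 against 10.7 CPM in DKO, 27.7 against 7.72 in KO and 32.7 against 13.3 in WT. Il18r1, the interleukin-18 receptor chain that also uses MyD88, was at 15.6 against 7.68 CPM in DKO, 12.0 against 2.22 in KO and 19.6 against 7.41 in WT. Kit, the stem cell factor receptor, was at 45.7 against 69.5 CPM in DKO, 37.4 against 41.9 in KO and 68.0 against 106 in WT. Irf8, a transcription factor of dendritic cell and B lineage development, was 3.90-fold higher in DKO (3.69 to 4.11) and 3.32-fold in WT (3.18 to 3.46). In KO it was 1.39-fold higher (1.29 to 1.49). The other cells of KO were rich in granule-marked cells, whose part in this ratio was not tested.

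Among the genes that were lower, some mark other branches. Pf4, a platelet chemokine gene, was at 9.25 against 183 CPM in DKO, 15.8 against 196 in KO and 4.46 against 66.3 in WT. Elane, the neutrophil elastase gene, was at 32.2 against 241 CPM in DKO, 142 against 1415 in KO and 27.3 against 99.9 in WT. With marked and B lineage cells left out of the other cells only, Elane turned round, with log2 ratios of 2.38, 2.01 and 2.71, since the granule-marked cells among the Dntt-positive ones stayed in. Of the stem cell markers, 12 of 13 were lower and 0 higher in DKO (median log2 ratio -1.37). In WT 11 of 13 were lower (median -1.30), against 2 of 8 lower and 1 higher in KO (median 0.17, or -0.35 at 5500 UMIs). Of all genes at 10 CPM, 3.30% were lower in DKO, 6.14% in KO and 2.89% in WT. Hlf, a transcription factor of stem cells, was at 66.9 against 122 CPM in DKO and 62.1 against 140 in WT, but at 52.2 against 28.9 in KO. The Hlf levels of the Dntt-positive cells lay close together in the 3 libraries, and the level in the other cells was what set KO apart. Without marked and B lineage cells among the others, Hlf in KO was lower in the Dntt-positive cells too (log2 ratio -0.79).

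**Figure D2:**
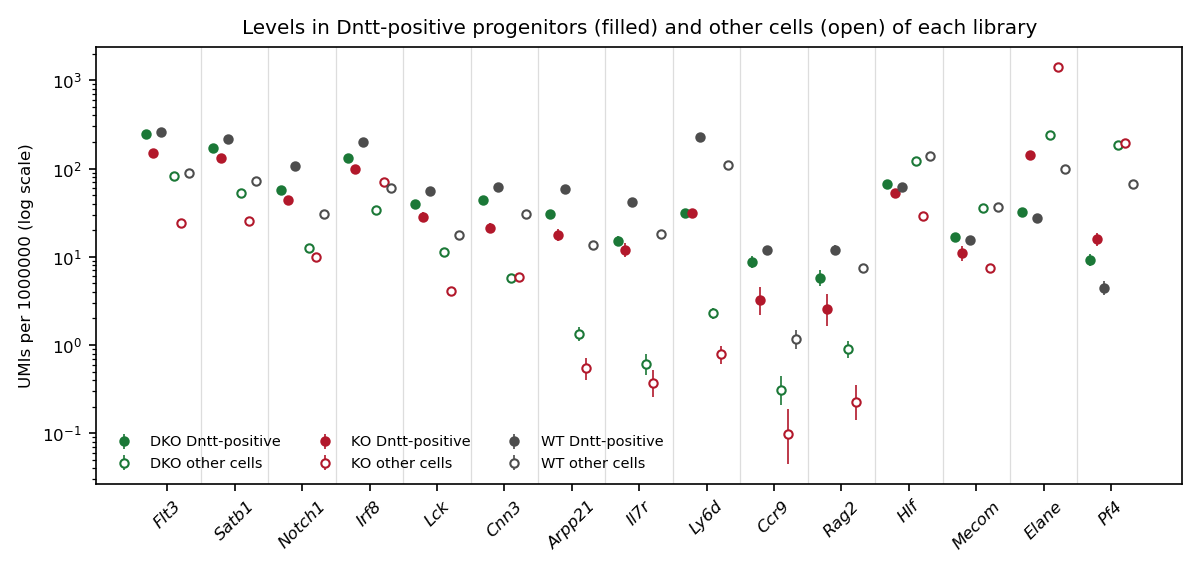
UMIs per 1000000 on a log axis for 15 genes in the Dntt-positive progenitors (filled) and in all other cells (open) of the DKO, KO and WT libraries, bars being exact 95% Poisson intervals. Lymphoid genes from Flt3 to Rag2 are higher in the filled points, Elane and Pf4 are lower, and Hlf is lower in DKO and WT (66.9 and 62.1 CPM) but not in KO.

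Within the Dntt-positive cells, other lymphoid genes were higher in the higher Dntt classes. The classes were cut on the Dntt count after thinning, so depth was equal. Il7r in WT was at 10.0 CPM in cells with 2 Dntt UMIs, 16.3 with 3 to 4, 39.4 with 5 to 9 and 108 with 10 or more. In DKO the levels were 6.06, 9.05, 22.8 and 48.7 CPM and in KO 8.56, 9.001, 15.3 and 77.9. Flt3 changed less across the classes, from 243 to 332 CPM in DKO, 133 to 252 in KO and 240 to 330 in WT. Cells with 0 Dntt UMIs held 86.7, 27.3 and 90.5 CPM of Flt3, and in DKO and WT more of its difference lay between 0 and 2 UMIs than above 2. Most of the difference of Il7r lay above 4 UMIs in all 3 libraries.

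Ly6d, a surface protein gene that divides early lymphoid progenitors by B potential, was also highest in the top class. It was at 5.19, 12.3, 46.4 and 148 CPM over the 4 classes in DKO, at 12.8, 3.60, 107 and 249 in KO and at 57.9, 116, 202 and 522 in WT. Rag1 in WT was at 2.95, 2.39 and 2.41 CPM in the 3 lower classes, on 5 or 6 counts each, and at 24.3 in the top class. Hlf ran the other way, with 87.4 CPM in the lowest and 27.7 in the top class of DKO and 113 and 19.3 in WT, while in KO it was at 47.1, 72.0, 65.7 and 14.8 over the 4 classes. Cells with the most Dntt held the most Il7r, Ly6d and Arpp21 and the least Hlf in each library. Outside the B limit, WT cells with at least 2 Dntt counts held 123 CPM of Il7r, 731 of Ly6d and 109 of Rag1, but only 92.4 of Flt3.

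**Figure D3:**
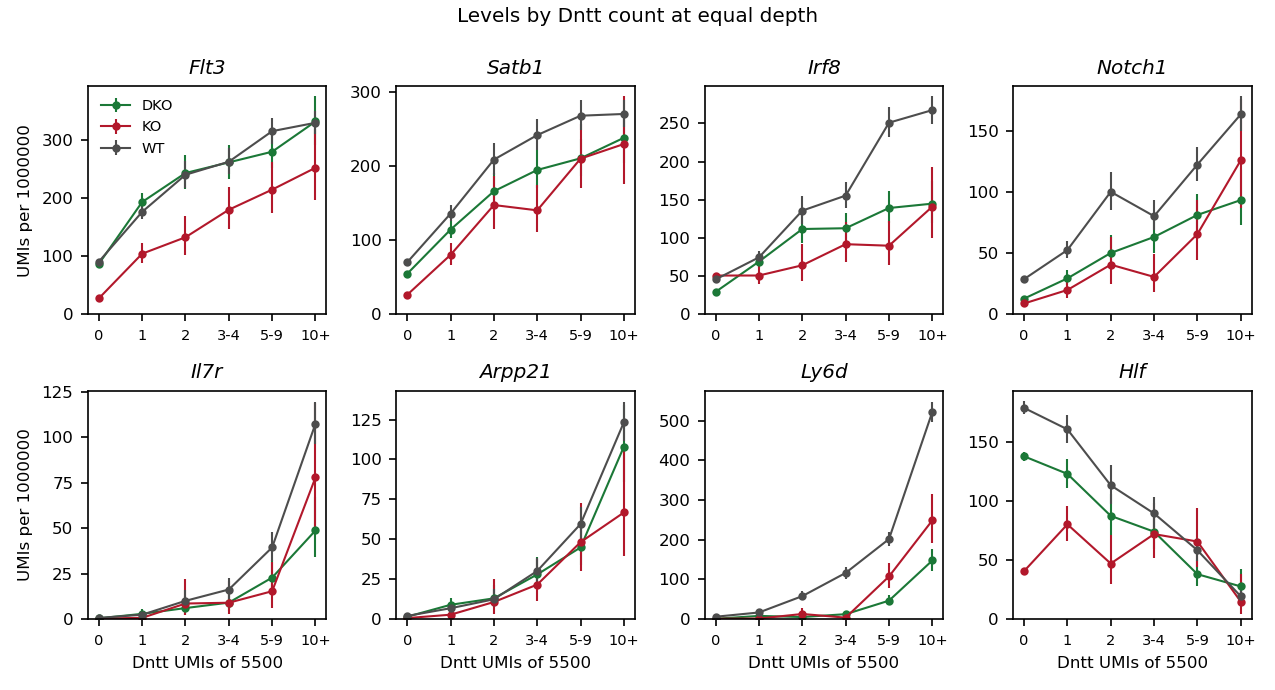
UMIs per 1000000 of 8 genes (each panel with its own axis) by the number of Dntt UMIs among 5500 in cells under the B limit, with exact 95% Poisson intervals, for the DKO, KO and WT libraries. Flt3 and Satb1 already differ between 0 and 2 Dntt UMIs, Il7r and Ly6d climb above 4 UMIs, and Hlf is lowest in the top class, at 14.8 to 27.7 CPM.

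An Il7r UMI split the WT progenitors into 316 positive and 1803 negative cells at 5500 UMIs. Il7r-positive cells made up 6.44% of the DKO (5.11 to 7.995), 5.58% of the KO (3.79 to 7.86) and 14.9% of the WT progenitors (13.4 to 16.5), against 0 of 145 erythroid-marked cells in DKO (which allows up to 2.07%), 1 of 1024 in KO (0.0977%) and 0 of 36 in WT (up to 8.33%). In WT, Dntt was itself 2.39-fold higher in the positive cells (2.31 to 2.48), so the split does not separate Il7r from the Dntt level. Ly6d was 7.89-fold higher in the positive cells of WT (7.28 to 8.54) and Rag1 7.46-fold (4.82 to 11.6). Blnk, a B cell adaptor, was 4.73-fold higher (3.87 to 5.76) and Rag2 3.14-fold (2.17 to 4.47). Siglech was 7.85-fold higher (4.50 to 13.9), from 33 counts in the positive and 24 in the negative cells. Irf8 was 2.10-fold higher and Id2, an inhibitor of E proteins used by innate lymphoid and dendritic cells, 2.12-fold (1.54 to 2.89). The positive cells held less Hlf (0.322 of the level in negative cells), Kit (0.489), Ltb, a lymphotoxin subunit (0.490), and Mpo (0.466). Flt3 was at 289 CPM in the positive and 274 in the negative cells, a ratio of 1.06 (0.958 to 1.16).

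**Figure D4:**
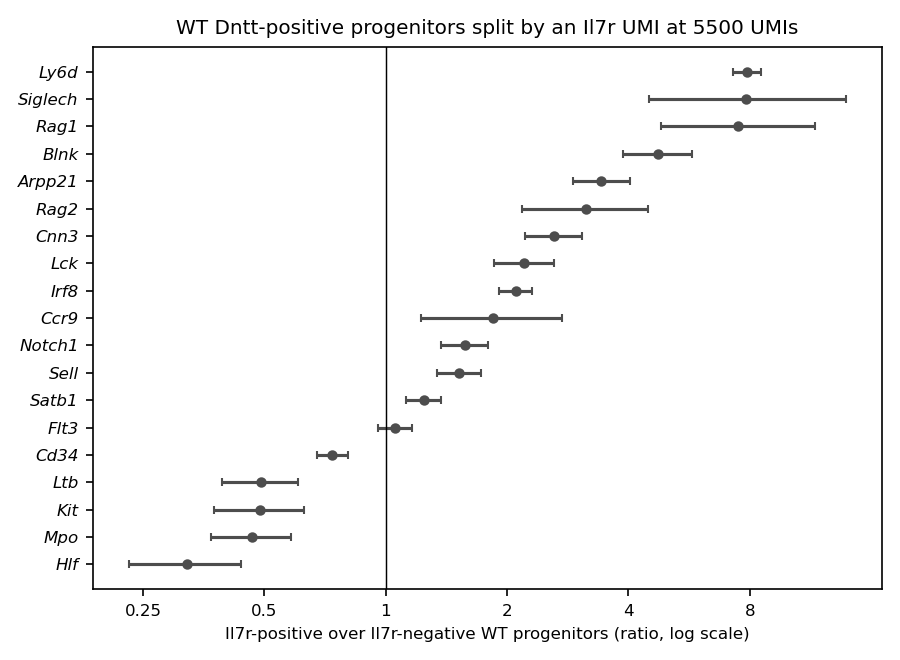
Ratio of the level in Il7r-positive over Il7r-negative Dntt-positive progenitors of the WT library at 5500 UMIs, on a log axis, with exact conditional 95% intervals for counting error. Ly6d, Siglech and Rag1 are more than 7-fold higher in the positive cells, Flt3 is at 1.06, and Hlf, Mpo, Kit and Ltb are lower.

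Over all WT cells, the genes whose level per cell went most with Dntt were Arpp21 (Pearson r = 0.56), Cnn3 (0.54), Il7r (0.52), Myl10 (0.52), Blnk (0.51), Il12a (0.49), Cox6a2 (0.49), Evl (0.49), Ly6d (0.48) and H2afy (0.48), on the log of counts per 10000. The WT library includes its B lineage cells, and the cells share 1 library and differ in depth. In DKO the same 10 genes ran from 0.24 for Blnk to 0.48 for Cox6a2, and in KO from 0.28 for Cnn3 to 0.45 for Arpp21.

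Between KO and WT, lymphoid genes were lower in KO, in the progenitors as in the other cells. Of 5045 genes, 109 (2.16%) passed the 1.5-fold limit upward and 306 (6.07%) downward in KO, which became 191 and 205 with TMM scaling. The lymphoid priming list had 0 of 29 members higher and 21 lower, with a median log2 ratio of -0.91 (-0.81 with TMM), where 2.18% of all genes at 10 CPM were higher and 7.34% lower and the all-gene median was -0.08. Il7r was at 12.1 CPM in KO and 42.2 in WT, 0.286 of the WT level (0.234 to 0.348). Flt3 was at 149 and 259 CPM (0.577, 0.544 to 0.611), Arpp21 at 17.7 and 58.5 (0.303, 0.257 to 0.356) and Ly6d at 31.0 and 229 (0.135, 0.120 to 0.152). Sox4, a transcription factor of early lymphoid and B progenitors, was at 283 and 570 CPM. Of the lymphoid transcription factors, 0 of 20 were higher and 9 lower (median -0.48, and -0.93 in the other cells). In the other cells the priming list had 1 of 24 members higher and 19 lower in KO (median -1.32). There 8.14% of all genes at 10 CPM were higher and 14.3% lower. The lower level was thus not particular to the progenitors.

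The Dntt count of the cells differed between the libraries as well, so levels were set side by side in the same class. In cells with 10 or more Dntt UMIs of 5500, of which there were 138 in DKO, 49 in KO and 575 in WT, Il7r was at 48.7 CPM in DKO (34.3 to 67.2), 77.9 in KO (48.2 to 119) and 108 in WT (96.4 to 120), and the KO and WT intervals overlapped. Arpp21 was at 108 (85.9 to 134), 66.8 (39.6 to 106) and 123 CPM (111 to 136). Ly6d was at 148 (122 to 178), 249 (193 to 316) and 522 CPM (497 to 548), with no overlap of these intervals for counting error. Irf8 was at 145, 141 and 268 CPM in DKO, KO and WT. In this class the ratio of KO to WT was nearer 1 for Il7r, Arpp21 and Ly6d than over all Dntt-positive cells. The class has no upper limit, so the Dntt level was not held equal between the libraries within it.

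Immediate early genes formed the list with the lowest median between KO and WT among those described here. Of all genes at 10 CPM, 2.18% were higher and 7.34% lower in KO, while of 22 list members 20 were lower and 1 higher. The list had a median log2 ratio of -1.99 (-2.18 in the other cells). Part of the WT cells held much of this RNA: at 5500 UMIs the list took a median of 9.09 UMIs per 10000 in DKO, 5.45 in KO and 10.9 in WT progenitors, with an upper quartile of 18.2, 10.9 and 45.5, so the median cells of KO and WT lay closer together than the summed levels of 842 and 3336 CPM. Fos was at 279 CPM in DKO, 75.6 in KO and 629 in WT, and Jun at 155, 87.3 and 385. Egr1 was at 24.6 CPM in DKO, 14.6 in KO and 115 in WT, and Nr4a1, an orphan nuclear receptor induced by antigen receptor and inflammatory signals, at 24.8, 5.13 and 52.1. Between DKO and WT, where 2.17% of all genes at 10 CPM were higher and 2.88% lower, 19 of 22 list members were lower and 0 higher. The median was -1.05, and -0.63 in the other cells. Immediate early genes also respond to cell handling, whose part in the result was not tested. Fos was at 348 CPM in DKO, 96.5 in KO and 569 in WT in the class with 10 or more Dntt UMIs, the same order as over all progenitors.

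Further lists differed between KO and WT, where 2.18% of all genes at 10 CPM were higher and 7.34% lower. All 5 measured members of the Gimap family, GTPases of lymphocyte survival, were lower in KO (median log2 ratio -1.56, and -2.33 in the other cells). Gimap6 was at 118 CPM in DKO, 47.1 in KO and 148 in WT. Of the NF-kB targets 9 of 18 were lower and 0 higher (median -0.70, and -0.83 in the other cells). The chemokine gene Ccl3 was at 86.9 CPM in DKO, 19.9 in KO and 129 in WT and Ccl4 at 63.5, 18.7 and 133. Klf2, a quiescence and trafficking factor of lymphocytes, was at 69.0 CPM in DKO, 24.0 in KO and 168 in WT. Of the MHC class II list 5 of 9 were lower and 0 higher in KO (median -0.59, and -0.46 in the other cells). S phase genes (0 higher and 0 lower of 35) and G2 and M phase genes (0 and 0 of 35) stayed within 1.5-fold.

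Interferon-stimulated genes ran against this. In KO 12 of 36 were higher and 1 lower than in WT (median log2 ratio 0.27, and 0.25 in the other cells). Of all genes at 10 CPM, 2.18% were higher and 7.34% lower. Ifitm1, a membrane protein gene that is also a stem cell marker, was at 572 CPM in DKO, 2295 in KO and 599 in WT, a KO over WT ratio of 3.83 (3.75 to 3.91). Ly6a, the gene of the Sca-1 antigen that defines LSK cells, was at 84.0, 233 and 87.5 CPM, a ratio of 2.66 (2.50 to 2.82). Ifi27l2a was at 61.3, 105 and 57.5 CPM and Zbp1, a sensor of nucleic acids, at 7.70, 16.0 and 4.90. KO stood alone above both other libraries for these genes. In the class with 10 or more Dntt UMIs, Ly6a was at 98.8, 345 and 95.8 CPM and Ifitm1 at 574, 1651 and 376. Vldlr, a lipoprotein receptor, was at 18.3 CPM in DKO, 56.3 in KO and 13.5 in WT progenitors.

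Granule genes were also higher in KO. The summed level of the neutrophil progenitor list was 1278 CPM in DKO, 2127 in KO and 729.5 in WT. Of its 8 measured members 6 were higher and 0 lower in KO than in WT (median log2 ratio 1.77, and 2.83 in the other cells). Of all genes at 10 CPM, 2.18% were higher and 7.34% lower. Elane was at 32.2, 142 and 27.3 CPM and Ms4a3, a gene of granulocyte-monocyte progenitors, at 8.42, 86.7 and 5.15. Of the progenitors, 109 of 1188 in DKO, 91 of 538 in KO and 35 of 2257 in WT were granule-marked, the largest part being in KO. Granule-marked cells are defined by Elane, Prtn3, Ctsg and Ms4a3, so their removal lowers these genes by construction. Without marked cells Elane was at 5.33 CPM in DKO, 29.8 in KO and 3.60 in WT, and Prtn3, which encodes proteinase 3, at 437, 745 and 299 CPM. Without marked cells Il7r was at 17.0 CPM in DKO, 15.5 in KO and 43.1 in WT, and Ly6d at 35.6, 39.2 and 234, both highest in WT.

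DKO and KO differ in Myd88 and, by Xist and Ddx3y, in sex, and these cannot be told apart here. Between them, 349 of 5027 genes (6.94%) passed the same limit upward and 75 (1.49%) downward in DKO. With TMM scaling the counts became 180 and 175. Over all these genes the median log2 ratio came to 0.11, or -0.01 once TMM scaling was used. Lymphoid priming genes had 12 of 28 members higher and 0 lower in DKO (median 0.44, or 0.33 with TMM, and 0.93 in the other cells). Of all genes at 10 CPM, 8.36% were higher and 1.82% lower. Flt3 was at 247 CPM in DKO and 149 in KO (1.65, 1.56 to 1.76), Arpp21 at 30.5 and 17.7 (1.72, 1.44 to 2.06) and Cnn3 at 44.4 and 21.2 (2.09, 1.78 to 2.46). Il7r was at 15.3 and 12.1 CPM (1.27, 1.01 to 1.59) and Ly6d at 31.5 and 31.0 (1.02, 0.880 to 1.18). Of these genes, Il7r and Ly6d were within 1.5-fold and Flt3, Arpp21 and Cnn3 were not.

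The genes with high ratios in DKO over KO included those of surface presentation and chemokines. Of the MHC class II list 8 of 9 were higher and 0 lower (median log2 ratio 0.96, and 1.03 in the other cells). H2-Eb1 was at 44.2 CPM in DKO, 12.8 in KO and 24.9 in WT. All 5 Gimap members were higher (median 1.13, and 1.95 in the other cells). Of 22 immediate early genes 15 were higher and 1 lower (median 0.80, and 1.51 in the other cells). Of all genes at 10 CPM, 8.36% were higher and 1.82% lower. Ccl5, a chemokine of T cell and inflammatory responses, was at 72.3 CPM in DKO, 9.61 in KO and 10.5 in WT, and was the highest ratio in both DKO comparisons among the genes named by rule. Ly6a was at 0.361 of its KO level in DKO (0.338 to 0.386) and Ifitm1 at 0.249 (0.243 to 0.255). Clec12a, an inhibitory lectin of myeloid progenitors, was at 152 CPM in DKO, 56.8 in KO and 139 in WT.

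Between DKO and WT, 85 of 5182 genes (1.64%) were higher and 114 (2.20%) lower in DKO. Lymphoid priming genes had 7 of 30 members lower and 0 higher (median log2 ratio -0.31, and -0.17 in the other cells). Of all genes at 10 CPM, 2.17% were higher and 2.88% lower. Flt3 was at 247 CPM in DKO and 259 in WT (0.953, 0.916 to 0.992), whereas Il7r was at 0.362 of its WT level (0.315 to 0.416), Ly6d at 0.138 (0.126 to 0.150) and Blnk at 0.157 (0.125 to 0.195). Il7r and Ly6d, which were higher in the higher Dntt classes, were further below WT than Flt3 was. Rag2 was at 5.73 CPM in DKO and 12.1 in WT, and Ccr9 at 8.78 and 12.0 (0.734, 0.598 to 0.898). The 3 pairs share their libraries, so their values are given side by side and were not correlated.

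**Figure D5:**
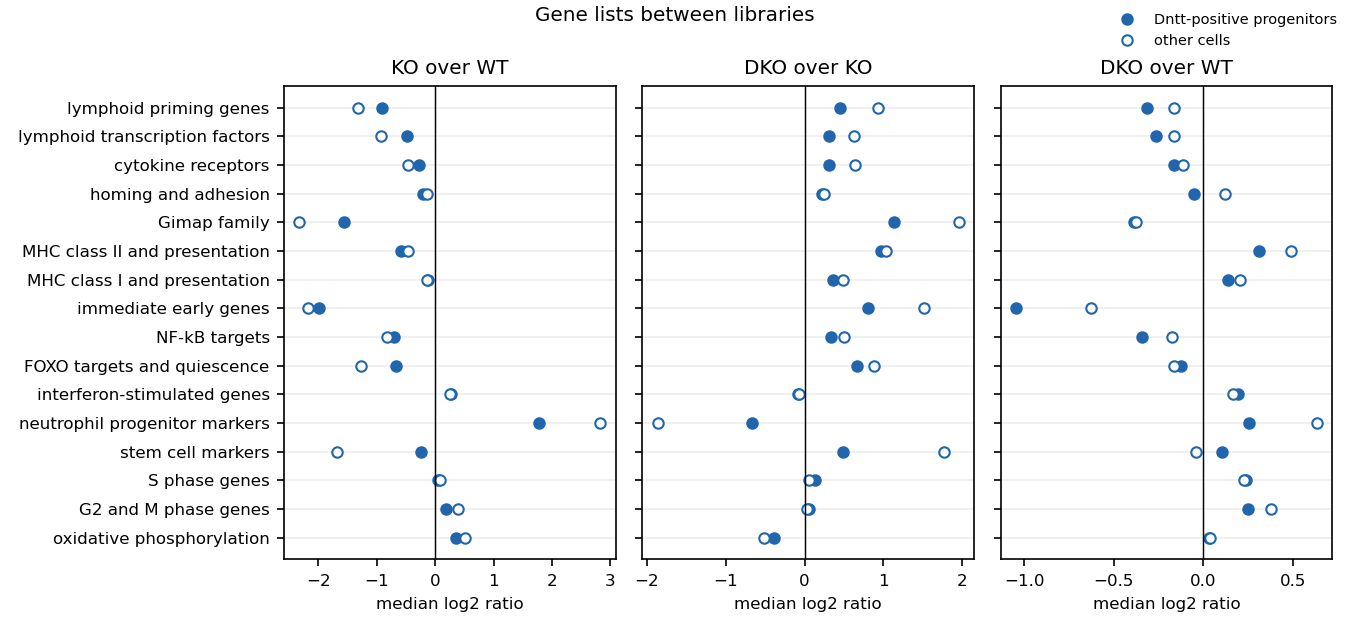
Median log2 ratio of 16 gene lists for KO over WT, DKO over KO and DKO over WT, in the Dntt-positive progenitors (filled) and in all other cells (open), with a different horizontal scale in each panel. In the progenitors, immediate early genes sit at -1.99, 0.80 and -1.05 and lymphoid priming genes at -0.91, 0.44 and -0.31. In the other cells immediate early genes sit at -2.18, 1.51 and -0.63 and lymphoid priming genes at -1.32, 0.93 and -0.17.

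Cycling was read at equal depth. S phase genes made up more than 0.5% of UMIs in 23.3% of the DKO progenitors (20.9 to 25.8), 11.3% of the KO (8.78 to 14.3) and 15.8% of the WT progenitors (14.3 to 17.4), against 27.2%, 19.1% and 20.5% of the other cells. G2 and M phase genes made up more than 0.5% in 18.1%, 18.2% and 12.8% of the progenitors, against 21.8%, 23.9% and 15.1% of the other cells. At more than 1% they did so in 5.51%, 0.929% and 3.92% of the progenitors, against 5.76%, 3.01% and 3.35% of the other cells, so the order of the libraries for these genes depended on the threshold. The progenitors of each library held fewer cells with a high S phase share than its other cells. Oxidative phosphorylation genes were within 1.5-fold for 34 of 36 members between KO and WT, with a median log2 ratio of 0.36.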

How the data were processed

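Single-cell RNA from bone marrow LSK cells was measured in 3 Chromium 3′ v2 libraries, 1 per genotype, per the labels. Tools named in the submitters' processing notes are Seurat, Cell Ranger and bcl2fastq, and the build is mm10; roles and versions are not given in the sources used here. From the authors came 2 deposited tables over 14721 genes and 21251 cells. In one each value is a UMI count, a whole number. In the other, deposited as normalized, each value is the natural log of 1 plus the count per 10000 of the cell's UMIs, which held within 0.001 at 69176581 nonzero entries, and it was not used further.

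Counts were summed over the cells of a group and divided by the total to give CPM. Levels carry exact Poisson, ratios exact conditional binomial and shares exact Clopper-Pearson 95% intervals, all for counting error only. Genes counted as higher or lower differed by at least 1.5-fold at a mean over the pair of at least 20 CPM, or 10 CPM within lists, and the call was checked on simulated counts. Erythroid-marked cells had at least 10 UMIs per 10000 of Klf1, Car1, Ermap and Tspo2, and granule-marked cells at least 20 of Elane, Prtn3, Ctsg and Ms4a3. Where no count was seen, the level allowed is that of 3 counts.

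The members and lists were chosen with earlier results of these data known. The naming rule took from each comparison 10 genes at either end of the ratios. Left out there were predicted, ribosomal protein, mitochondrial and globin genes and the sex-linked Xist, Ddx3y, Eif2s3y, Kdm5d and Uty. Other genes of the sex chromosomes were not left out, and all of these stayed in the counts of genes. The rule also took up to 4 members of each list, Spop, Myd88, the 4 markers and the 10 genes most correlated with Dntt in WT. Not every gene it picks is described. Beyond this rule, the genes given by Dntt class, by Il7r split as receptors or as markers of another cell type were chosen after their values were seen. The classes of thinned Dntt counts and the threshold of 10 counts were also added after seeing the data. Doublets were not removed: Scrublet's automatic calls marked 4 DKO, 39 KO and 2 WT cells, so an alternative left out the highest scores (536, 194 and 531 cells). edgeR 4.0.16 gave the TMM factors of another alternative. Of the 14721 symbols, 14216 matched 1 gene of GENCODE vM21. Computation used Python 3.11.15 with scipy 1.17.1 and scanpy 1.11.5.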

Additional observations from a re-analysis of the deposited data

Results flagged for a closer look

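The ratio between libraries went one way in the Dntt-positive progenitors and the opposite way in the other cells, by at least 1.5-fold in each, for 3 genes between KO and WT and for 3 between DKO and KO, and the difference between the 2 sets of cells was not tested. Clec12a, a myeloid inhibitory lectin gene, was at 56.8 CPM in KO and 139 in WT progenitors (log2 ratio -1.30) but at 95.6 and 40.4 CPM in the other cells (1.24). Between DKO and KO it was at 152 and 56.8 CPM in progenitors (1.42) and at 42.7 and 95.6 in the other cells (-1.16).

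Ncf1, a subunit of the phagocyte oxidase, was at 53.2 CPM in KO and 81.4 in WT progenitors (log2 ratio -0.61) and at 42.7 and 22.9 in the other cells (0.90). Between DKO and KO it was at 91.9 and 53.2 CPM in progenitors (0.79) and at 24.2 and 42.7 in the other cells (-0.82). S100a6, a calcium-binding protein gene, was at 82.8 CPM in KO and 37.3 in WT progenitors (1.15) and at 44.7 and 67.2 in the other cells (-0.59). S100a8, a subunit of calprotectin, was at 38.1 CPM in DKO and 9.40 in KO progenitors (2.02) and at 69.3 and 235 in the other cells (-1.76). Granule-marked cells made up 13.5% of the DKO library, 39.4% of the KO library and 4.79% of the WT library, and their part in these values was not tested.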

How the results depend on the processing

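With 1 library per genotype, no replicate could be left out, and no paired analysis was possible because each group has 1 sample. The share of Dntt-positive progenitors kept the order DKO above KO and below WT under all 10 alternatives. With a Dntt threshold of 1 count it was 23.4% in DKO, 18.7% in KO and 40.6% in WT, with 3 counts 11.5%, 8.80% and 23.2%, with 4 counts 9.54%, 7.24% and 20.3%, and with 10 counts, chosen after the data had been seen, 5.05%, 3.64% and 11.9%. With at least 2 Dntt UMIs per 10000 it was 11.6%, 7.68% and 25.8%, and at 5500 UMIs 10.1%, 6.46% and 22.98%. With no limit on the B genes WT came to 35.3%.

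Counts of genes follow, for DKO, KO and WT progenitors over other cells and then for KO over WT, DKO over KO and DKO over WT, each as higher and lower. At 2-fold they were 44 and 58, 73 and 79, 47 and 46, 31 and 75, 49 and 19, and 14 and 28. At a mean of 50 CPM they were 48 and 64, 91 and 139, 61 and 41, 57 and 117, 134 and 36, and 33 and 43. With no filter on low counts they were 1224 and 1910, 2267 and 1594, 1012 and 1896, 1091 and 2264, 2142 and 863, and 1085 and 1379. At a mean of 10 CPM they were 202 and 244 for DKO, 407 and 434 for KO, 216 lower for WT, 531 lower for KO over WT, 602 and 131 for DKO over KO, and 160 and 212 for DKO over WT. A Dntt threshold of 10 gave 235 lower in DKO, 470 in KO and 170 in WT. Without the 50 most abundant genes in the total, 180 were higher in DKO and 429 in KO over other cells, 128 lower in DKO than KO and 188 lower in DKO than WT. TMM gave 191 higher in KO than WT, and 180 higher and 175 lower in DKO than KO. Thinning gave 481 lower in KO over other cells. With marked and B lineage cells out of the others, 119 genes were higher in KO and 172 lower in WT.

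Of 2640 alternative log2 ratios of named genes, 20 changed direction from a difference of at least 1.5-fold. With marked and B lineage cells out of the other cells, which takes granule-marked cells from 1 side only, Elane came to 2.38 in DKO, 2.01 in KO and 2.71 in WT, Mpo to 0.59 in DKO and 1.41 in KO, and in KO Clec12a to 3.12, Ms4a3 to 0.52, Prtn3 to 0.86, Gimap6 to -0.062, Hlf to -0.79, Ltb to -0.089, S100a6 to -0.62 and Vldlr to -0.22. Rag1 in WT came to 4.18 there, to 4.21 without B lineage cells alone and to 0.25 at 10 Dntt counts. At 10 counts Hlf in KO came to -0.35 and Elane in DKO over KO to 0.81. Mpo in KO over WT came to -0.10 without marked cells, and Pf4 in DKO over KO to 0.86 at 5500 UMIs. Apart from the granule genes, the cause of these changes was not tested. Of 234 alternative list medians 6 changed sign, all from values nearer 0 than the 1.5-fold limit, 5 of them under TMM and 1, the stem cell markers of KO, at 5500 UMIs (-0.35 in place of 0.17). The fewest counts stand behind KO, whose 538 progenitors held 9364994 UMIs in all.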

Other observations

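The NK and innate lymphoid marker list was lower in summed level in the Dntt-positive progenitors than in the other cells, at 303 against 468 CPM in DKO, 286 against 422 in KO and 269 against 312 in WT. Most of that level was Nkg7, a granule protein gene of cytotoxic lymphocytes, at 271 against 449 CPM in DKO, 267 against 417 in KO and 243 against 295.5 in WT. Against this, 2 of its low members were higher, and were chosen after their values had been seen. Klrd1, which encodes the CD94 receptor chain, was at 8.30 CPM in progenitors against 0.590 in other cells of DKO, at 5.02 against 0.0978 in KO and at 13.005 against 1.85 in WT. Gzma, the granzyme A gene, was at 9.43 against 0.0644 CPM in DKO, at 5.45 against 0.217 in KO and at 0.527 against 0.180 in WT. Klrd1 was highest in WT and Gzma in DKO.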
